A study of Cryptomeria japonica with 72 samples.

Results

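The base and the middle of stem cuttings of *Cryptomeria japonica* (sugi, a conifer) were compared 3 h after the cuttings had been inserted into soil (3 hpi). The members of the comparison were the 3 arrays labelled base and the 3 arrays labelled middle at 3 hpi, 6 of the 72 arrays of the series, and they were chosen by their labels alone. All cuttings came from 1 plus-tree clone, Tsukuba 1, and the donor trees were 18 years old. The cuttings were inserted into Kanuma soil and kept in a greenhouse without environmental control. The base was a 1-cm piece of stem below the soil surface and the middle a 1-cm piece above it. The parts shared the clone and the time since excision and insertion, and the labels name no hormone. Only the base held the cut end and lay in soil, so that position, wound and burial cannot be told apart. Each part was taken from 3 cuttings per time point. Earlier arrays of the same parts, at excision (0 hpe) and at insertion about 2 h later (0 hpi), and later ones, at 1 and 3 d (dpi) and at 1, 3 and 6 weeks (wpi), were used to follow the same targets over time.

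A cutting must regenerate roots from stem tissue, and these adventitious roots form mainly near the cut base. Wounding sets off calcium influx, an oxidative burst and protein kinase cascades in plants, followed by changes in transcription, and the cells that will form roots have to leave their former fate and divide. Auxin, carried down the stem, collects at the base and is the best known inducer of rooting. Members of the GRAS family of transcription factors, among them SHORT-ROOT (SHR) and SCARECROW (SCR), pattern the root in *Arabidopsis*.

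Each of the 19304 targets, which are assembled transcript sequences named reCj, had 3 or 4 replicate spots. The value of a target on an array was the log2 of the mean signal of its spots relative to the 75th percentile of all targets on that array, so that 0 is that percentile and a difference of 1 between parts is a 2-fold difference. On the 6 arrays, 13410 targets were well above background in every spot and were tested. Of the other 5894 targets, 173 passed at the base only, 1241 in the middle only and 4480 in neither part. The lowest signal well above background was 12.2, 17.4 and 10.3 on the base arrays, against 11.4, 7.83 and 8.06 on the middle arrays. The counts passing in 1 part only were thus not taken at an equal limit. Names came from the best *Arabidopsis* hit in the tables of the study, which covered 4436 of the tested targets. Those tables hold targets chosen in part for their variation on these arrays, and the names are those of the *Arabidopsis* protein and not of a characterised sugi gene.

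The arrays of a part were not equally alike. Base replicates 1 and 3 were close to each other (r = 0.988 across the tested targets, which are not independent replicates), while base replicate 2 gave r = 0.878 and 0.886 with them. Middle replicate 1 correlated at 0.952 and 0.954 with base replicates 1 and 3, and at 0.938 and 0.883 with middle replicates 2 and 3. Replicate pairs of the base and the middle at the other 7 times ranged from 0.783 to 0.987. The base arrays lay on slides 2, 1 and 3 and the middle arrays on slides 7, 9 and 9, with middle replicate 1 alone on slide 7, so that slide and part cannot be told apart at 3 hpi. At 0 hpe the base arrays lay on slides 5, 6 and 5 and the middle arrays on slide 8. There 1 of 13025 targets was called (0.00768%), in a fit that did not pair the arrays by number. These are not the slides of 3 hpi, so this count says nothing about slide there. Between 76.4% and 83.8% of the spots of each array were well above background, and no target was saturated.

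At 3 hpi the base differed from the middle in 647 of the 13410 targets tested (4.82%). Of these, 247 (1.84%) were higher and 400 (2.98%) were lower at the base. A target was called when the Benjamini-Hochberg adjusted p of limma was below 0.05 and the log2 difference was at least 1 in size, in a fit of all 48 arrays of base and middle, whose 16 groups shared 1 estimate of the spread. The median size of a called difference was 1.45, and 130 of the 647 reached 2. Of the 4436 annotated tested targets, from which the gene lists were drawn, 3.29% were called higher and 2.68% lower. The difference was positive in 6957 of all tested targets and in 2547 of the annotated ones. The 3 arrays of one part did not overlap with those of the other in 499 of the called targets and in 3110 of all tested targets (23.2%). Whether lower signal came from fewer cells of a type or from less RNA per cell cannot be told apart in pieces of whole stem.

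The balance of the calls depended on the scaling. Scaled to the array median, the call counts were 354 higher and 250 lower, and with quantile normalization 190 and 281. After another background correction (normexp) they were 270 and 200. The median difference of all targets was 0.11 with the 75th percentile, 0.23 with the array median and 0.01 with quantile normalization. The number of calls also rested on single arrays. It was 1381 without middle replicate 1, 256 without middle replicate 2 and 90 without middle replicate 3, and lay between 481 and 710 when a base array was left out. In all 6 such fits 68 targets were called, 26 higher and 42 lower. Fitted on the 6 arrays alone, 2 targets were called: reCj23616, which was higher at the base by 4.42, and reCj28955, which was lower by 3.30 on the log2 scale and was not called in the fit of 48 arrays.

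**Figure D1:**
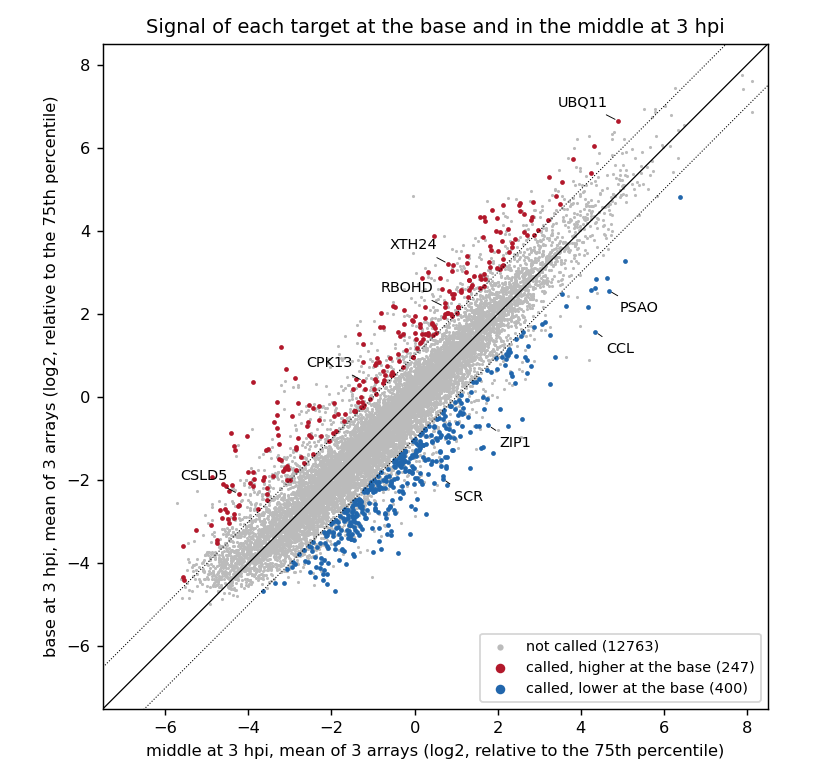
Mean log2 signal of each of the 13410 tested targets in the middle (x axis) and at the base (y axis) at 3 hpi, relative to the 75th percentile of each array. The solid line marks equal signal and the dotted lines a log2 difference of 1 in either direction; red points are the 247 targets called higher and blue points the 400 called lower at the base, with some named from their *Arabidopsis* hit.

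Transcription factors of the GRAS family were among the largest annotated falls. The SCR target reCj20794 read -1.58, -2.08 and -2.25 at the base, against -0.44, 0.49 and 1.99 in the middle. The parts did not overlap, and the middle arrays spread over a wider range than the base arrays. The means were -1.97 ± 0.35 for the base and 0.68 ± 1.23 for the middle (SD, n = 3), a log2 difference of -2.65 (SE 0.45, limma adjusted p = 0.000413). It was called in all 6 fits without 1 array, between -3.21 and -1.99. Another GRAS target, reCj24218, read -4.38, -1.79 and -5.07 at the base, against -1.58, -0.43 and 0.77 in the middle. Its base replicate 2 lay close to middle replicate 1, without overlap. Its log2 difference was -3.34 (SE 0.69, limma adjusted p = 0.0027), and without middle replicate 3 the difference of -2.75 missed the threshold (limma adjusted p = 0.0544).

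These 2 GRAS targets had reached 3 hpi from different earlier levels. SCR stood at 1.37 (base) and 1.59 (middle) at 0 hpe and at 0.59 and 0.77 at 0 hpi. From 0 hpe to 3 hpi it fell by 3.34 at the base (limma adjusted p = 1.95e-07), while the middle gave a log2 difference of -0.91 (limma adjusted p = 0.109). The target reCj24218 stood at -2.53 and -2.52 at 0 hpe, and in the middle it rose by 2.11 to 3 hpi (limma adjusted p = 0.0154), whereas the base gave -1.21 (limma adjusted p = 0.138). The difference in change between the parts did not pass the threshold for either, with -2.43 for SCR and -3.33 for reCj24218 (limma adjusted p = 0.0924 and 0.133).

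Transcription factors of other families were called in both directions. A basic helix-loop-helix factor, reCj21743, read -0.72, 0.86 and -0.98 at the base, against 1.88, 2.06 and 2.24 in the middle. The 3 middle arrays lay close together and above all base arrays, and the log2 difference was -2.34 (SE 0.51, limma adjusted p = 0.0042). Among 13 tested MYB factors, a family that regulates flavonoids and epidermal cell fate among other processes, 2 were lower, none was higher and 11 did not pass. The share lower was 15.4%, against 2.98% of all tested targets and 2.68% of the annotated ones, and the difference was positive in 7 of the 13. The 2 were MYB5 (reCj26320, -1.93) and MYB82 (reCj27552, -1.74). Without middle replicate 2 the differences were -1.97 and -1.44 and without middle replicate 3 they were -1.20 and -1.63, and none of these passed. MYB82 was also lost without base replicate 2 (-1.22). The zinc finger homeodomain target HB31 (reCj22487), chosen after its values were seen, was lower by 1.73 on the log2 scale, and the Homeodomain-like target reCj24318, also chosen after its values were seen, was higher by 1.85. Both were called in all 6 fits without 1 array.

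Among the targets with the largest falls were membrane kinases and a metal transporter. A lectin receptor kinase, reCj20163, read -2.75, -1.56 and -3.02 at the base, against -0.62, -0.16 and 0.98 in the middle. The parts did not overlap, and the log2 difference was -2.51 (SE 0.33, limma adjusted p = 1.81e-05). ZIP1 (reCj14486), which in *Arabidopsis* takes up zinc, read -0.29, -1.61 and -0.13 at the base, against 1.43, 1.64 and 2.24 in the middle. Its log2 difference was -2.45 (SE 0.35, limma adjusted p = 8.07e-05), and the order of the parts was later the opposite, with the base higher by 1.24 at 3 dpi and by 1.62 at 1 wpi. Both targets and the oxygenase target reCj24171 (-2.65) were called in all 6 fits without 1 array. Another lectin kinase, reCj20495, gave -3.11 with a wide spread at the base (from -2.43 to 0.91), and its call was lost without base replicate 2 (-2.16), middle replicate 2 (-3.20) or middle replicate 3 (-2.38). A further kinase, PERK8 (reCj26927), gave -2.72 and was lost without base replicate 2 or middle replicate 3, and the CCR-like target CCL (reCj31935) gave -2.77 and was called in 2 of the 6 fits.

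The list of receptor and leucine-rich repeat kinases, membrane proteins that perceive external signals, held 95 tested targets. Of these, 10 were lower (10.5%, against 2.98% of all tested targets and 2.68% of the annotated ones). Another 3 were higher (3.16%, against 1.84% and 3.29%), a share near that of the annotated targets, and 82 did not pass. Its median difference was -0.08, close to the 0.02 over all tested targets, so that members lay on both sides. The 3 that were higher were IMK2 (reCj21818, 2.20) and the wall-associated kinases WAK2 (reCj12826, 1.33, and reCj19596, 1.13), the WAK2 pair named after their values were seen. Without middle replicate 3 the counts were 2 lower and 0 higher.

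Intracellular disease resistance proteins, the NB-LRR receptors that recognise pathogen effectors, held the most called falls of any list. Of 86 tested targets 16 were lower at the base (18.6%, against 2.98% of all tested targets and 2.68% of the annotated ones). Another 4 were higher (4.65%, against 1.84% and 3.29%) and 66 did not pass. The median was 0.02, as over all tested targets, and turned to -0.02 with quantile normalization. The NB-ARC target reCj20214 read -2.60, -2.26 and -3.09 at the base, against -1.51, -0.74 and 0.45 in the middle. The arrays did not overlap, with a log2 difference of -2.05 (SE 0.33, limma adjusted p = 0.000251), and it was called in all 6 fits without 1 array. The ZAR1 target reCj08428 gave -1.98 and was lost without middle replicate 3 (-1.32). The 4 that were higher were reCj29661 (1.17), the helper receptor ADR1-L1 (reCj11542, 1.41), reCj00377 and reCj09575, the last 3 named after their values were seen. Without middle replicate 3 the list counted 5 lower and 3 higher, and without middle replicate 1 it counted 23 and 10. Without middle replicate 2 it counted 12 and 1, and without base replicate 2 it counted 13 and 11. After normexp it counted 6 and 4. These genes form a large family of similar sequences, and signal shared between members was not tested.

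The photosynthesis list held 13 targets, all tested. Of these, 6 were called lower at the base (46.2%, against 2.98% of all tested targets and 2.68% of the annotated ones). None was called higher and 7 did not pass. The difference was negative in 12 and positive in 1. The median difference was -1.70, against 0.02 over all tested targets. The 6 were the photosystem II subunit PSBTN (reCj09225, -2.41), the photosystem I subunit O (PSAO, reCj31726, -2.11), the light-harvesting protein LHCA4 (reCj27187, -2.06), the aldolase FBA1 (reCj07033, -1.99), PnsB3 of the NDH complex (reCj29920, -1.76) and CP12-1 (reCj31383, -1.70), which regulates the Calvin cycle. The last 3 were named after their values were seen. The called count moved with single arrays: 0 without middle replicate 3, 1 without middle replicate 2 or base replicate 2, 3 without base replicate 3, and 9 without middle replicate 1. The median stayed between -2.08 and -1.19.

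PSAO read 2.68, 2.55 and 2.47 at the base, against 3.23, 4.63 and 6.16 in the middle. The base arrays lay close together and below the middle arrays, which were spread widely. The log2 difference was -2.11 (SE 0.64, limma adjusted p = 0.0323), and without middle replicate 3 it was -1.36 (limma adjusted p = 0.31). The call was also lost without middle replicate 2 (-2.13) or any base array (between -2.16 and -2.06). Of the 10 targets for which the study designed qRT-PCR primers PSAO was the only one called, and its primers are shown as the sequence that identifies the transcript (5′ to 3′, from the study's primer table).
PSAO forward: gggaagtcctctaagaaagcaaaa
PSAO reverse: cctcagccaatctctctgaaaac

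The summed signal of the 13 photosynthesis targets, as log2, was 5.51, 5.22 and 5.07 at the base, against 5.83, 6.79 and 7.87 in the middle. In needles at 3 hpi it lay between 7.61 and 8.71. At 0 hpe replicates 1 to 3 gave 8.14, 8.42 and 7.71 at the base, against 8.32, 8.84 and 7.89 in the middle. The middle was thus already the higher part for each replicate number at excision. The base arrays and middle replicates 1 and 2 lay below the range of their part at excision, and middle replicate 3 lay just under it. Middle replicate 1 was the nearest of the middle arrays to the base. Since 0 hpe PSAO fell by 3.92 below ground and fell by 1.91 in the middle, and LHCA4 fell by 3.95 and fell by 1.98, respectively (limma adjusted p between 3.58e-07 and 0.0175). These targets mark green tissue, and their share in the 2 pieces of stem, and its part in these differences, was not tested.

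**Figure D2:**
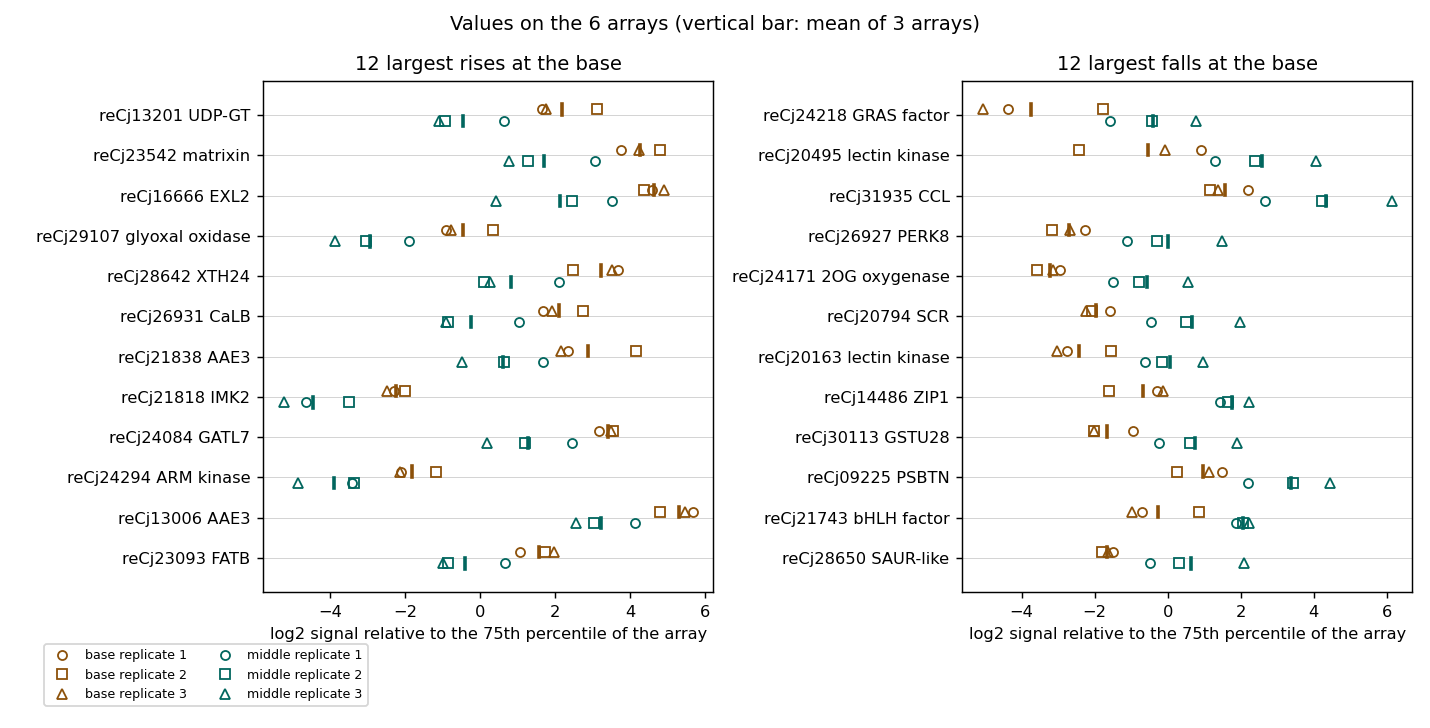
Values of the 6 arrays at 3 hpi for the 12 largest annotated rises (left) and falls (right) at the base among called targets whose arrays did not overlap, as log2 signal above or below the array's 75th percentile. Symbols mark the replicate, brown is base, green is middle and the short bar is the mean of 3 arrays; in most targets middle replicate 1 (green circle) is the middle array nearest to the base.

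Of 41 tested calcium signalling targets 8 were called higher at the base (19.5%, against 1.84% of all tested targets and 3.29% of the annotated ones). None was called lower and 33 did not pass. Positive differences were seen in 30 and negative ones in 11, with a median of 0.42 (0.23 to 0.69 without any one array) against 0.02 over all tested targets. The calcium-dependent protein kinase CPK13 (reCj33934) read 0.29, 0.40 and 0.47 at the base, against -0.62, -1.43 and -1.64 in the middle. The parts were clearly apart, with means of 0.38 ± 0.09 for the base and -1.23 ± 0.53 for the middle (SD, n = 3). The log2 difference was 1.61 (SE 0.26, limma adjusted p = 0.000185) and was called in all 6 fits without 1 array. CPK17 (reCj19883, 1.03) and the calmodulin-binding protein CAMBP25 (reCj26545, 1.34), both named after their values were seen, were also among the 8.

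The 2 EF-hand targets with the largest differences overlapped between the parts. The first, reCj31688, read 4.39, 3.76 and 4.88 at the base, against 4.62, 0.85 and -0.44 in the middle. The second, reCj30571, read 1.54, 1.75 and 1.78 at the base, against 1.77, -1.27 and -2.81 in the middle. In both, middle replicate 1 lay at the level of the base and the other middle arrays far below it. The log2 differences were 2.67 (SE 0.83, limma adjusted p = 0.0378) and 2.46 (SE 0.64, limma adjusted p = 0.0147). Without middle replicate 2 or 3 neither was called, with differences between 1.44 and 2.26, and reCj31688 was also lost without base replicate 1 (2.64) or 3 (2.40). The calcium list counted 1 higher without middle replicate 2 or 3, against 13 without middle replicate 1 and 3 with quantile normalization.

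A further 2 signalling enzymes, chosen after their values were seen, were called in all 6 fits without 1 array. RBOHD (reCj18009), the NADPH oxidase of the oxidative burst in *Arabidopsis*, read 1.98, 2.77 and 1.78 at the base, against 1.00, 0.71 and 0.45 in the middle. The log2 difference was 1.46 (SE 0.27, limma adjusted p = 0.00123). MEKK1 (reCj21593), the first kinase of a stress-activated cascade, read 2.04, 1.94 and 2.02 at the base, against 1.00, 0.47 and 0.74 in the middle. Its log2 difference was 1.26 (SE 0.23, limma adjusted p = 0.00112). In both targets every base array lay above every middle array.

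Transcription factors of the wound response gave less clear differences. Of 29 tested ERF factors, which act downstream of ethylene, 1 was called higher and 24 had a positive difference, and the median was 0.50. The share higher was 3.45%, against 1.84% of all tested targets and 3.29% of the annotated ones. The called target, ERF-1 (reCj30717), read 2.56, 2.68 and 3.35 at the base, against 2.86, -1.17 and -1.17 in the middle. Middle replicate 1 again lay among the base arrays, and the log2 difference of 2.69 (SE 0.89, limma adjusted p = 0.0495) passed in 1 of the 6 fits without 1 array, the one without middle replicate 1 (4.03). In the other 5 it lay between 2.01 and 2.84. None of 12 WRKY and 8 NAC factors was called, with medians of 0.65 and 0.49. None of 15 jasmonate targets was called either (median 0.22). Jasmonate is the main wound hormone.

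Enzymes that build and loosen the cell wall were higher at the base in 5 of 55 tested targets (9.09%, against 1.84% of all tested targets and 3.29% of the annotated ones). In this list 1 was lower (1.82%, against 2.98% and 2.68%). The list's median was 0.29. SOS5, a fasciclin-like arabinogalactan protein (reCj24683, chosen after its values were seen), read -1.93, -1.33 and -1.21 at the base, against -2.87, -3.23 and -3.66 in the middle. All base arrays were higher, by 1.76 in the log2 mean (SE 0.35, limma adjusted p = 0.00213), and it was called in all 6 fits without 1 array. The xyloglucan endotransglucosylase XTH24 (reCj28642), which cuts and rejoins the xyloglucan between cellulose fibrils, read 3.66, 2.46 and 3.52 at the base, against 2.09, 0.09 and 0.26 in the middle. Its log2 difference was 2.40 (SE 0.66, limma adjusted p = 0.0206), and it was lost without base replicate 1 or 3 or middle replicate 2 or 3, where it lay between 2.04 and 2.24.

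The other wall targets called higher were a pectin methylesterase (reCj08529, 1.91), the cellulose synthase-like CSLD5 (reCj22480, 1.90), which makes wall polysaccharide in dividing cells, and the cellulose synthase CESA2 (reCj17990, 1.07). A pectin methylesterase inhibitor (reCj21717) was lower by 1.26 on the log2 scale and was named after its values were seen. Without middle replicate 3 the list counted 1 higher, SOS5, and 0 lower. Without base replicate 2 it counted 2 higher and 3 lower, and without middle replicate 2 it counted 2 and 0. Outside the list, GATL7 (reCj24084), a galacturonosyltransferase-like protein, was higher by 2.13, and did not pass without middle replicate 2 (2.09) or 3 (1.58). EXL2 (reCj16666), of the EXORDIUM family of extracellular proteins, was higher by 2.50, and was called in 1 of the 6 fits without 1 array (1.64 without middle replicate 3). The 20 cellulose synthase and laccase names, read as a sign of wall-forming tissue, had a median level between -1.31 and -0.14 on the base arrays and between -1.49 and -0.89 on the middle arrays, so that the parts overlapped.

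Cell division targets lay above the middle at the base in 30 of 34 tested, against 6957 of all 13410 tested targets. The median difference was 1.00 against 0.02 over all tested targets. The base arrays were all above the middle arrays in 18 of the 34, against 12.7% of all tested targets. Called higher were 4 targets (11.8%, against 1.84% of all tested targets and 3.29% of the annotated ones), and none was lower. CYC1BAT (reCj22394), a B-type cyclin of mitosis, read 0.15, 0.31 and 0.41 at the base, against -1.23, -0.38 and -2.40 in the middle. The log2 difference was 1.63 (SE 0.52, limma adjusted p = 0.0441). KINESIN-12B (reCj28599), a motor of the phragmoplast that builds the new wall between daughter cells, gave 1.71, and the cyclin E target reCj19100, named after its values were seen, gave 1.16. The fourth, the SMR2-like inhibitor of cyclin-dependent kinases (reCj25468), acts as a brake on the cell cycle. It read 3.66, 3.77 and 3.21 at the base, against 2.38, 1.57 and 1.61 in the middle, a log2 difference of 1.70 (SE 0.40, limma adjusted p = 0.00808).

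The cell division calls were few under most settings. They counted 0 without middle replicate 3, 2 with quantile normalization and 7 with normexp, while the median stayed between 0.66 and 1.25 without any one array. CYC1BAT was lost without any one base array (between 1.57 and 1.70) and without middle replicate 3 (1.10). KINESIN-12B (reCj28599) passed in 1 of the 6 such fits, without middle replicate 2 (2.14), and lay between 1.23 and 1.82 in the others. The SMR2-like target was lost without middle replicate 2 (1.55) or 3 (1.57). The median level of the 35 targets was -1.25, -1.06 and -1.21 on the base arrays, against -1.97, -1.66 and -2.23 on the middle arrays at 3 hpi. At 0 hpe it ranged from -2.26 to -0.88 (base) and from -2.34 to -0.94 (middle), so that the spread among cuttings at excision covered both parts. By replicate number it was -2.26, -2.17 and -0.88 at the base, against -2.34, -2.25 and -0.94 in the middle. From 0 hpe CYC1BAT gave a change of 0.93 for the base and -0.57 for the middle, neither past the threshold (limma adjusted p = 0.136 and 0.421).

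The polyubiquitin targets UBQ11 (reCj30170), UBQ14 (reCj26812) and UBQ10 (reCj26440) were higher at the base by 1.74, 1.63 and 1.52. UBQ11 read 6.53, 6.71 and 6.70 at the base, against 5.68, 4.82 and 4.21 in the middle. All 3 calls were lost without middle replicate 3, where the differences were between 1.31 and 1.40. They were the only targets higher among 68 of the ubiquitin and proteasome list, in which 1 was lower (1.47%, against 2.98% and 2.68%). The share higher was 4.41%, against 1.84% of all tested targets and 3.29% of the annotated ones. Polyubiquitin genes are near copies of one another, and signal shared among them was not tested. Of 40 glutathione S-transferases and glycosyltransferases, which conjugate toxic compounds, 4 were higher (10%, against 1.84% and 3.29%). In this list 1 was lower (2.5%, against 2.98% of all tested targets and 2.68% of the annotated ones), a share near both. The largest of these was the glycosyltransferase reCj13201, with 1.65, 3.10 and 1.76 at the base, against 0.62, -0.93 and -1.11 in the middle (log2 difference 2.64, SE 0.80, limma adjusted p = 0.0324). It was not called without base replicate 2 or 3 or middle replicate 2 or 3 (2.18 to 2.85). GSTU28 (reCj30113) was the 1 that was lower (-2.42). Without middle replicate 2 or 3 the list counted no call, and without middle replicate 1 it counted 8 higher and 2 lower.

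Among enzymes of primary metabolism, pyruvate decarboxylase (reCj19600), the entry to ethanol fermentation, was higher at the base by 2.52 (SE 0.73, limma adjusted p = 0.0259). It read 2.95, -0.82 and 2.92 at the base, against 0.96, -1.50 and -1.96 in the middle, so that base replicate 2 lay below middle replicate 1. The call was lost without base replicate 1 or 3 or middle replicate 2 or 3 (1.88 to 2.19). It was the 1 called of 9 low-oxygen and fermentation targets (11.1%, against 1.84% of all tested targets and 3.29% of the annotated ones), all with a positive difference. Their median was 0.68, ranged from 0.23 without base replicate 1 to 1.41 without middle replicate 1, and in none of the 9 did all base arrays lie above all middle arrays. None of 13 tricarboxylic acid cycle targets was called (median 0.26). None of 83 ribosomal protein targets was called, with a median of -0.12 and a range from -0.60 to 0.42, and none of 7 aquaporins was. AAE3, an oxalyl-CoA synthetase in *Arabidopsis*, had 2 targets among the 12 largest rises, reCj21838 (2.27) and reCj13006 (2.07). Both were lost without middle replicate 3 (1.72 and 1.73), and reCj21838 also without base replicate 2 (1.63) or middle replicate 2 (2.28). Of 66 heat shock proteins and chaperones 2 were higher (3.03%, against 1.84% of all tested targets and 3.29% of the annotated ones). Another 3 were lower (4.55%, against 2.98% and 2.68%), and the median was 0.14. Of 31 cytochrome P450 targets 3 were lower (9.68%, against 2.98% and 2.68%), and none of them was called with normexp, quantile normalization or scaling to the array median.

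**Figure D3:**
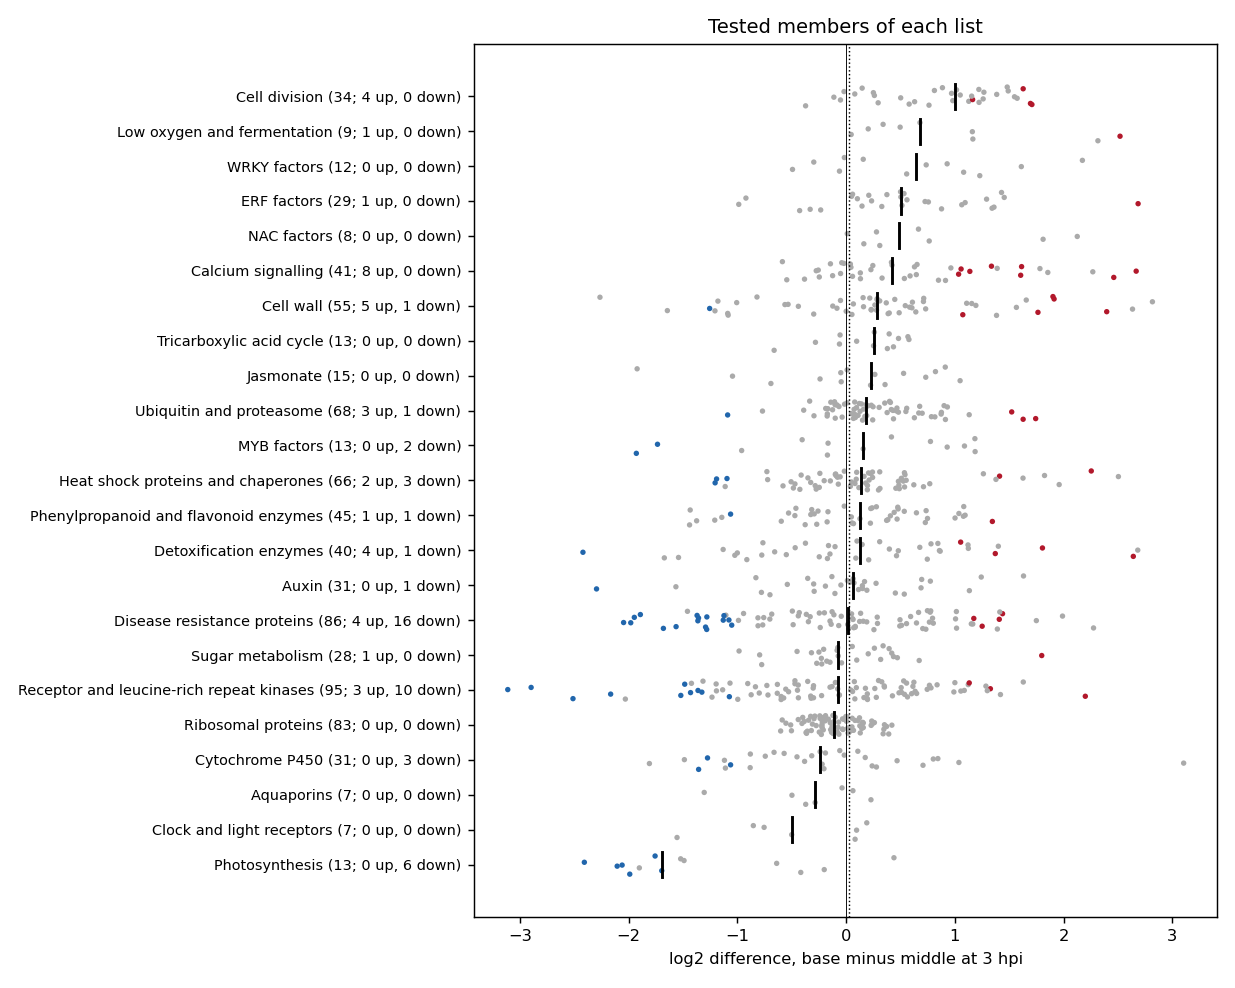
Log2 difference between base and middle at 3 hpi for the tested members of 23 lists of named targets, each point a target. Red and blue points were called higher and lower, bars mark the list medians, the dotted line marks the median of all 13410 tested targets, and labels give the number tested and called; the Photosynthesis median lies at -1.70 and the Cell division median at 1.00.

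The targets of the study's table of rooting-related genes, all tested, showed SCR as the single call of 34, where 4.82% of all tested targets were called. That table was compiled with these arrays in view, so its members are not independent of them. None of the 11 auxin response factors (ARF), which turn auxin signals into transcription, was called, and their differences ran from -0.35 to 0.77. The auxin efflux carrier PIN3 (reCj18758) read -2.95, -0.97 and -2.69 at the base, against -1.79, -0.29 and 0.17 in the middle. Base replicate 2 lay above middle replicate 1, and the log2 difference of -1.57 (SE 0.56) did not pass (limma adjusted p = 0.0704). The 2 GH3 targets, of a family that conjugates auxin or jasmonate, gave 0.27 for JAR1 (reCj23831) and 1.63 for DFL2 (reCj22862, limma adjusted p = 0.174).

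Beyond SCR, 3 targets of the table had an adjusted p below the threshold and a difference under the fold minimum. ETO1 (reCj17974), which in *Arabidopsis* limits ethylene production, was 0.70 higher at the base (limma adjusted p = 0.0098). The SCARECROW-like SCL1 targets differed in sign, with 0.96 for reCj19040 (limma adjusted p = 0.026) and -0.76 for reCj19489 (limma adjusted p = 0.0372). The 2 SHR targets, whose product activates SCR in *Arabidopsis*, gave -0.62 (reCj24821) and 0.42 (reCj23597), and neither passed (limma adjusted p = 0.268 and 0.517). NCED5 (reCj20044), of abscisic acid synthesis, gave -1.26 with arrays that did not overlap and was not called (SE 0.69, limma adjusted p = 0.244). Nitrate reductase NIA1 (reCj19463) gave 0.77 (limma adjusted p = 0.575). Of 31 targets with auxin names, 1 was called, and it was lower (3.23%, against 2.98% of all tested targets). It was the SAUR-like target reCj28650 (-2.30), with -1.51, -1.80 and -1.65 at the base, against -0.47, 0.31 and 2.10 in the middle. Without middle replicate 3 it gave -1.57 and did not pass.

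Targets without a usable name held the largest differences of all. Higher at the base were reCj23616 by 4.42, reCj28072 by 4.25 and reCj29542 by 3.79, and lower by 3.19, 3.08 and 3.02 on the log2 scale were reCj24615, reCj23346 and reCj33154. The target reCj23616 read 1.17, 1.49 and 0.95 at the base, against -2.99, -2.92 and -3.73 in the middle, and the parts were far apart. Its SE of 1.35 came from the pooled spread of all 16 groups, and in the fits without 1 array it passed once, without middle replicate 1 (4.53). The targets reCj28072 and reCj23346 were lost without middle replicate 3 (3.21 and -2.86), and reCj29542 without middle replicate 2 or 3 (3.00 in each). The falls of reCj24615 and reCj33154 were called in all 6 fits. Further targets were above background in 1 part only. Of these, 3 were well above background in every spot at the base and in no spot of the middle, with reCj14066 at least 4.93-fold and reCj09089 at least 4.92-fold higher at the base. The bound set the mean of the bright part against the lowest signal well above background in the dim part. In the other direction there were 35 targets, led by reCj30924 (at least 5.57-fold). None of these 5 leading targets in the middle or 3 at the base had a name.

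The targets called at 3 hpi were then followed back to excision. Of the 247 that were higher at the base, 190 could be tested at the base between 0 hpe and 0 hpi, before the arrays compared here were taken, although those arrays too shared in the spread of the fit. Of these, 110 had risen by 0 hpi (57.9%, against 6.48% of all targets tested), with none lower. In the middle 106 of 203 had risen (52.2%, against 5.84%) and 1 had fallen. From 0 hpi to 3 hpi, the base rose further in 81 and fell in 31 of 242 targets (of all targets 8.14% rose and 9.15% fell), and the middle rose in 17 and fell in 65 (of all targets 4.77% rose and 3.59% fell). Over that interval the base had a median change of 0.52, the middle one of -0.64. These later changes contain the arrays by which the targets were called and are given as a description.

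UBQ11 (reCj30170) shows the early rise in both parts and the later fall in the middle, without a further rise at the base. Its mean level rose from 1.97 (base) and 2.00 (middle) at 0 hpe to 6.72 and 6.36 at 0 hpi, and stood at 6.65 and 4.90 at 3 hpi. For XTH24 (reCj28642) the means were 4.64 and 4.18 at 0 hpi and 3.21 and 0.81 at 3 hpi. CPK13 (reCj33934) stood at -0.86 and -0.90 at 0 hpi and at 0.38 and -1.23 at 3 hpi. In the first 2 targets the middle was further below its 0 hpi mean than the base, and in CPK13 the base was above it.

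The 400 targets lower at the base took the other course. By 0 hpi 95 of 395 had fallen at the base (24.1%, against 4.76% of all targets) and 65 of 399 in the middle (16.3%, against 4.29%). Between 0 hpi and 3 hpi the base fell further in 247 of 397 (62.2%, against 9.15% of all targets) and rose in 3, with a median change of -1.29. In the middle 13 of 400 fell (3.25%, against 3.59% of all targets) and 25 rose (6.25%, against 4.77%), with a median change of -0.23. From 0 hpe to 3 hpi 333 of 398 fell at the base (16.1% of all targets) and 143 of 399 in the middle (9.18%). As above, the changes that end at 3 hpi contain the arrays by which the targets were called. They follow in part from that choice and are given as a description.

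The difference in change between the parts was tested directly. From 0 hpe to 3 hpi, 4 of 12094 targets (0.0331%) changed differently, all lower at the base, and 82 did with the replicate block. They were reCj24615 (no usable name), the Clp-N motif target reCj18065, the mitochondrial transcription termination factor target reCj23517 and reCj29207. The best hit of reCj29207 was of the same family but missed the limit for a usable name (E = 2.76e-05). From 0 hpi to 3 hpi, 35 of 12992 (0.269%) changed differently, 9 in favour of the base (0.0693%) and 26 in favour of the middle (0.2%). The base arrays of reCj18065 read -4.27, -4.15 and -4.33 at 3 hpi and the middle arrays -2.83, -1.77 and -1.70, and the parts had the same mean of -1.27 at 0 hpe. Its difference in change was -2.14 (SE 0.37, limma adjusted p = 0.00791). The extra-large G-like target reCj18104 gave the largest positive value from 0 hpi, 2.19 (SE 0.43, limma adjusted p = 0.019). Without middle replicate 1 at 3 hpi the counts were 338 and 242, without base replicate 2 at 3 hpi they were 104 and 122, and without middle replicate 3 at 3 hpi they were 0 and 4.

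**Figure D4:**
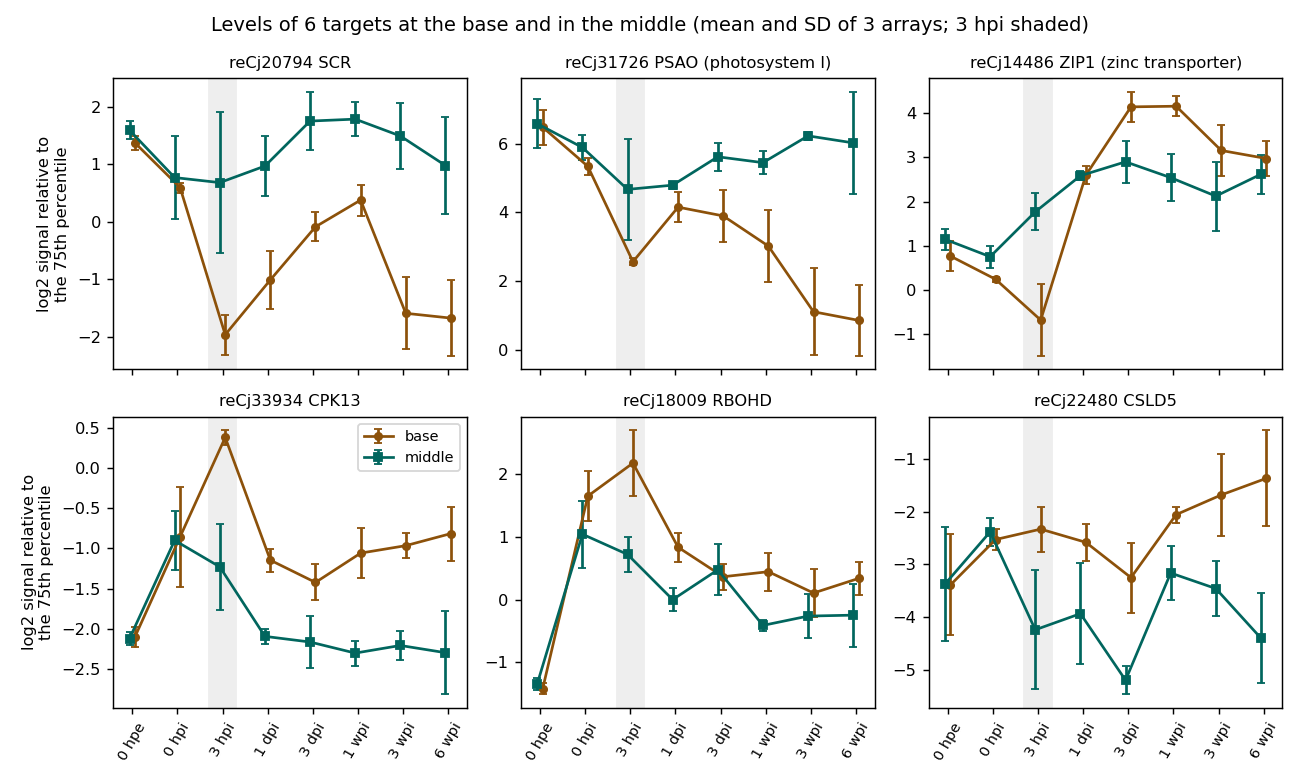
Mean level (± SD, n = 3) of 6 targets at the base (brown) and in the middle (green) at the 8 sampling times, as log2 signal above or below the array's 75th percentile, with 3 hpi shaded. In all 6 the parts start close to each other at 0 hpe and are apart at 3 hpi; for ZIP1 (reCj14486) the base is above the middle from 3 dpi.

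The same targets were read in base and middle at the other times. Those arrays did not enter the difference at 3 hpi but shared in the spread by which it was tested, so that these counts are not independent of the choice. At 0 hpe none of the 247 or the 400 was called in the fit without pairing by number, with medians of 0.04 and -0.12. At 0 hpi none of 239 testable targets of the first set was called (median 0.37, against 0.0428% of all targets), and 3 of 397 of the second were (median -0.29, against 0.05%). At 1 dpi 47 of 217 were higher at the base again (21.7%, against 3.07% of all targets) and 80 of 379 were lower (21.1%, against 2.73%). These were 11.9% of the 394 targets higher and 22.9% of the 350 lower at 1 dpi.

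At each later time fewer of these targets were called in the opposite direction than in the same one. At 3 dpi 53 of 191 were higher (27.7%, against 7.29% of all targets) and 154 of 356 lower (43.3%, against 5.84%), and at 3 wpi 88 of 215 (40.9%, against 12.7%) and 216 of 386 (56%, against 11.3%). At 1 wpi 104 of 189 were called higher (55%, against 15.2% of all targets) and none lower, and at 6 wpi 109 of 203 were (53.7%, against 16%), again with none lower. Of the targets lower at 3 hpi, 116 of 285 were lower at 1 wpi (40.7%, against 6.39%) and 191 of 370 at 6 wpi (51.6%, against 10.2%). At each of these times 14 of them were higher, where 15.2% (1 wpi) and 16% (6 wpi) of all targets were. Opposite calls at the other times in the first set were 1 of 217 at 1 dpi (against 2.73% of all targets) and 2 of 215 at 3 wpi (against 11.3%). In the second set they were 2 of 356 at 3 dpi (against 7.29%) and 12 of 386 at 3 wpi (against 12.7%). SCR (reCj20794) stayed below the middle, with differences from -1.41 to -3.09 between 1 dpi and 6 wpi. PSAO (reCj31726) gave -0.64 at 1 dpi and -5.17 at 6 wpi. The bHLH target reCj21743 lay between -0.63 and 0.64 from 1 dpi on and was not called again. The GRAS target reCj24218 was called in the opposite direction at 1, 3 and 6 wpi (2.06, 2.47 and 1.79). The calls at 1 wpi and 6 wpi came to 6.35% and 5.42% of all targets higher at those times, and to 16.9% and 14.9% of those lower.

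**Figure D5:**
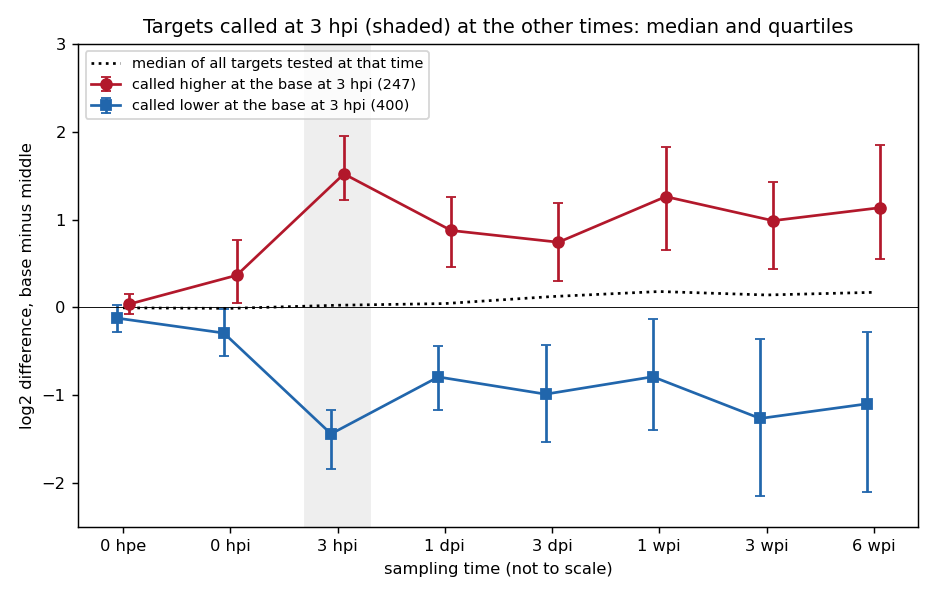
Log2 difference between base and middle at the 8 sampling times for the 247 targets called higher (red) and the 400 called lower (blue) at the base at 3 hpi, as the median with lower and upper quartiles of those testable at each time. The shaded 3 hpi values, 1.52 and -1.44, follow from the choice of targets; the dotted line is the median of all targets tested at each time, and the medians are 0.04 and -0.12 at 0 hpe.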

How the data were processed

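RNA of base, middle and needle samples was hybridised to 1-colour Agilent custom arrays, and the authors read them with Agilent Feature Extraction 11.5. The files the authors deposited hold the processed signal intensity of each spot, and a table of log2 values that the authors scaled to the 75th percentile and centred per probe. Each target's spots that were not flagged as non-uniform were averaged, the log2 was taken and the 75th percentile of the array was subtracted. The log2 values the authors deposited differed from these by at most 0.00451 after the same centring. A target was tested when no spot was flagged as non-uniform, every spot was well above background and its mean signal was over 10 on all arrays compared.

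The 48 base and middle arrays were fitted with limma 3.58.1 in R 4.3.3, with 1 mean for each of 16 groups, and p-values were adjusted by Benjamini-Hochberg over all targets tested. A call required a log2 difference of 1 or more in size together with an adjusted p under 0.05. On simulated data 186 of 200 targets changed by 3 on the log2 scale were recovered among 13410, with 5 other calls. The labels do not say whether the base and middle pieces of 1 number came from 1 cutting, and p-values measure the spread between these samples. The number of arrays limits the precision. Names are the best *Arabidopsis* hits (E below 1e-05) in the study's tables, which were held only in part, and no sequence of the targets was used here.

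Members and lists were chosen with earlier results of these data known. Targets were named by rule: the 12 largest annotated rises and falls whose arrays did not overlap, the 3 largest unannotated ones, all targets of the rooting and primer tables (some given only as counts), up to 3 called per list, up to 5 per direction for each difference in change and for targets above background in 1 part. Exceptions are stated, and RBOHD, MEKK1, HB31, SOS5 and reCj24318 were added after their values were seen. The alternatives were normexp background correction on the median signal, quantile or median scaling, other filters, no fold minimum, only the arrays compared, slide or replicate number as a block, and leaving out each array. The gene lists under other scalings and without single arrays were added after seeing the data.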

Additional observations from a re-analysis of the deposited data

Results flagged for a closer look

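The change since excision or since insertion differed between base and middle in the targets that follow, by a test of the difference in change itself (limma, adjusted over all targets). Positive values mean a more positive change at the base. Groups held 3 arrays, too few for a test of single outlying arrays.

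From 0 hpe to 3 hpi the test called 4 targets. The unnamed target reCj24615 gave -3.07 (SE 0.50, adjusted p = 0.00583): it fell by 2.41 at the base and stood 0.66 higher in the middle, a change that did not pass. The Clp-N motif target reCj18065 gave -2.14 and had fallen in the base by 2.98. The mitochondrial transcription termination factor target reCj23517, of a family that acts on organelle gene expression, gave -1.26. The target reCj29207, without a usable name, gave -1.13. Both fell at the base, by 1.45 and 1.15.

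From 0 hpi to 3 hpi it called 35 targets. Among the largest in favour of the base were the extra-large G-like target reCj18104 (2.19), the cellulose synthase CESA2 (reCj17990, 1.72), the lipid synthesis enzyme target reCj20832 (1.70), the defence regulator EDS1 (reCj20440, 1.65) and the TIR-NBS-LRR target reCj29661 (1.61). EDS1 read 2.09, 2.47 and 1.93 at the base at 3 hpi and 1.08, 1.04 and 1.01 in the middle, with means of 2.19 and 2.73 at 0 hpi. In favour of the middle were reCj32680 (-3.79), reCj26581 (-3.66), reCj33549 (-3.23), reCj24615 (-3.04) and the oxygenase target reCj24171 (-2.83). Of these 5, reCj24171 and reCj24615 had near-equal means in the parts at 0 hpi (0.22 and 0.03, and -2.06 and -1.91), while reCj32680 stood at 0.08 and -1.41.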

How the results depend on the processing

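The number of targets called at 3 hpi was 647, and it stayed within 1.5 times of that with normexp (470), quantile normalization (471), no filter (779), slide as a random block (655), scaling to the array median (604), a filter on all 48 arrays (475), a filter on positive and significant spots (698) and the values the authors deposited (647). Fitted on the 6 arrays alone it was 2, and 1274 with no minimum on the log2 difference. Leaving out 1 array gave 90 to 1381.

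The replicate numbers were checked for pairing. Base and middle deviations of the same number at 3 hpi correlated at -0.13, 0.25 and 0.05 across targets (0.24 at most between different numbers), so the numbers were not taken to pair the samples there. At 0 hpe the same numbers correlated at 0.94, 0.77 and 0.94 (-0.11 at most between different numbers), and every pair was also above 0.1 at 3 dpi (0.22 to 0.27) and 6 wpi (0.13 to 0.31). With the replicate block in the fit of 48 arrays 1068 targets were called at 3 hpi, 82 for the change from 0 hpe and 96 for that from 0 hpi. With the replicate block on the 6 arrays alone the count was 0.

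For the change from 0 hpe the 4 calls became 0 with normexp, 1 with quantile normalization, 0 when fitted on those arrays alone and 7 with slide as a random block, and 0 to 338 without 1 array. For the change from 0 hpi the 35 calls became 0 with normexp, 5 with quantile normalization, 23 with no filter and 0 when fitted on those arrays alone, and 2 to 242 without 1 array. The cause was not tested. Of 75 named targets called at 3 hpi, 19 were called in all 6 fits without 1 array, against 68 of all 647 calls. RBOHD, MEKK1, HB31 and SOS5 are among the 19 and were added after their values were seen. The share among the named targets is therefore not free of that choice.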

Other observations

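Among the largest named rises, several targets belonged to none of the lists. A matrixin-family metalloprotease (reCj23542) was higher at the base by 2.55, a glyoxal oxidase-related target (reCj29107) by 2.48, a calcium-dependent lipid-binding target (reCj26931) by 2.35, the kinase FUSED (FU, reCj24294) by 2.08 and the thioesterase FATB (reCj23093), which releases saturated fatty acids in the plastid, by 1.97. Without middle replicate 3 none of these 5 was called (1.59 to 2.09), and reCj29107 was called in the other 5 fits without 1 array. The phenylpropanoid list of 45 targets held 1 call higher, phenylalanine ammonia-lyase PAL2 (reCj20649), whose base replicate 2 (3.33) stood above the other base arrays (0.49 and 0.75), and 1 call lower, the flavonoid hydroxylase TT7 (reCj20062). Each was called in 2 of the 6 fits without 1 array, and PAL2 gave 0.44 without base replicate 2 (limma adjusted p = 0.493). Each direction held 2.22% of the list, against 1.84% (higher) and 2.98% (lower) of all tested targets.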
